A study of Caenorhabditis elegans with 34 samples.

Results

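The pud genes of the nematode Caenorhabditis elegans are 6 protein-coding genes, pud-1.1, pud-1.2, pud-2.1, pud-2.2, pud-3 and pud-4, taken from a count table of 20223 features by their gene identifiers. The family was chosen by name around pud-4, which was selected on its rise in animals predicted to live long. The long-over-short values of pud-4 are therefore given as a description with no test, while the other 5 genes were chosen for belonging to its family. The name stands for protein up-regulated in daf-2 mutants. DAF-2 is the worm's insulin/IGF-1 receptor, and its loss extends lifespan through the FOXO transcription factor DAF-16. PUD-1 and PUD-2 were found as proteins more abundant in such mutants, and they bind each other as a heterodimer. They are small nematode proteins of unknown biochemical function made in the intestine and the epidermis, and pud-3 and pud-4 are paralogs in the same cluster.

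The study asked which transcripts differ between age-matched animals that differ in remaining lifespan. Whole animals were sorted on day 5 of culture at 25 °C, on a microfluidic chip, into the top and bottom 10th percentile of a fluorescent biomarker, and RNA was sequenced from each fraction. All strains carried spe-9(hc88), a temperature-sensitive mutation that blocks fertilization, and were fed E. coli OP50. There were 34 libraries in 8 groups. The predicted long-lived groups were lin-4p::GFP high (6 libraries), mir-243p::GFP high (4), mir-240/786p::GFP low (4) and autofluorescence low (3), and the predicted short-lived groups were lin-4p::GFP low (6), mir-243p::GFP low (4), mir-240/786p::GFP high (4) and autofluorescence high (3). In the first 3 biomarkers GFP is driven by a microRNA promoter, mainly in the posterior intestine for lin-4p::GFP, the whole intestine for mir-243p::GFP and the spermatheca for mir-240/786p::GFP, while the autofluorescence animals carried no reporter and were sorted on red intestinal and uterine fluorescence. High and low fractions with the same sort number came from 1 sort, 17 sorts in all, and each library came from pooled animals. The labels do not say whether sorts came from separate cultures, so p-values measure the spread between these libraries only. The main fits did not pair the fractions of a sort, and they took the spread of a gene over all 34 libraries. A p-value for a single population therefore rests on the spread in the other populations too.

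Depth ran from 15.8 M to 26.1 M (megareads) counted per library, with a median of 20.9 M. The gfp transcript followed the labels in the 3 reporter populations: 489 to 1833 CPM (counts-per-million) in lin-4p::GFP high against 188 to 394 in low, 2018 to 2935 in mir-243p::GFP high against 877 to 1605 in low, and 163 to 206 in mir-240/786p::GFP low against 316 to 395 in high. CPM here is scaled for library composition with edgeR's TMM factors. In the reporter-free autofluorescence libraries gfp had at most 16 counts. Lin-4p::GFP high sorts 1 and 2 stood apart for the pud genes. The pooled and lin-4p::GFP differences, the group orders and the likenesses are given with and without both sorts. For the differences in the other populations, adjusted p without both sorts are given for some genes only.

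All 6 genes lie in 1 stretch of 8893 bases on chromosome V (WBcel235), and no exon of theirs overlaps another gene. From left to right these are pud-1.2 (WBGene00021236, minus strand, 2322038 to 2322566), pud-2.2 (WBGene00017500, plus strand, 2323014 to 2323524), pud-3 (WBGene00017501, minus strand, 2324634 to 2325152), pud-4 (WBGene00017498, plus strand, 2326678 to 2327282), pud-2.1 (WBGene00017490, minus strand, 2329444 to 2329954) and pud-1.1 (WBGene00017499, plus strand, 2330429 to 2330930). The arrangement is mirrored. At each end a pud-1 gene and a pud-2 gene point away from each other across a short gap, of 447 bases on the left and 474 bases on the right, with pud-3 and pud-4 between the 2 pairs, also divergent, 1525 bases apart. Both pud-2 genes have exons of 253 and 212 bases. The pud-1 genes share an exon of 200 bases and differ in the other, which is 256 bases in pud-1.1 and 283 bases in pud-1.2. The gene pud-3 is annotated with a single exon of 519 bases and pud-4 with exons of 259 and 305 bases.

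**Figure D1:**
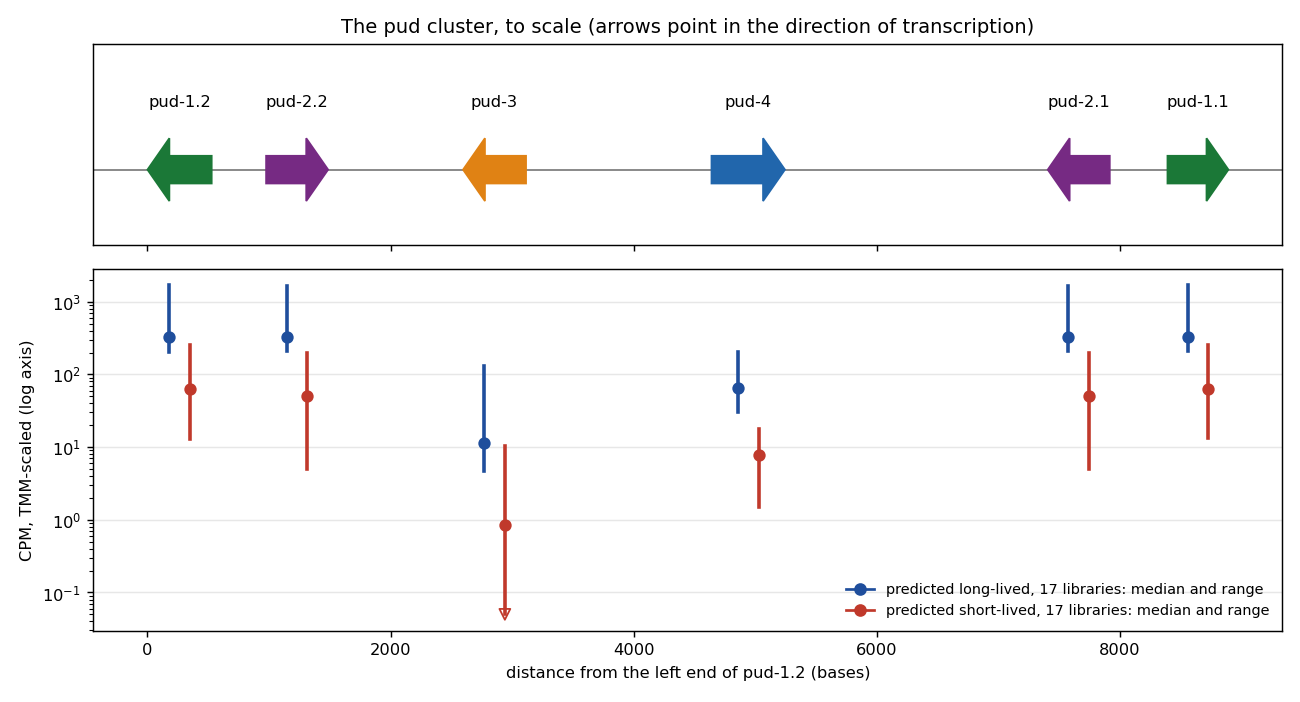
Map of the pud cluster to scale (top; x axis, bases from the left end of pud-1.2) above the TMM-scaled CPM of each gene on a log axis (bottom). Points are medians and lines run from the lowest to the highest of 17 predicted long-lived (blue) and 17 predicted short-lived (red) libraries; the open triangle marks a library with 0 counts of pud-3. The pud-1 and pud-2 medians are similar in the long-lived libraries, and pud-3 is the lowest of the 6. The copies of a pair could not be told apart in the counts, so their points are not separate levels.

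The copies could not be told apart in the counts. In all 34 libraries pud-1.1 and pud-1.2 differed by at most 57 counts, or 0.749%, with a median difference of 0.122%. The pud-2.1 and pud-2.2 counts differed by at most 14, or 1.52%, with a median of 0.151%. The chi-square per degree of freedom between the copies was 0.00842 for pud-1 and 0.00673 for pud-2, far below the value of 1 that independent counting would give. The pud-1 genes encode the same protein, as do the pud-2 genes, and how reads matching more than 1 place were counted is not given in the sources used here. The 6 genes therefore stand for 4 separate measurements, called pud-1, pud-2, pud-3 and pud-4 below, with the values of pud-1.1 and pud-2.1 standing for their pairs.

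The genes of the cluster were not equally abundant. Per kilobase of exon, the mean level in lin-4p::GFP high was 1368 CPM for pud-1.1, 1414 for pud-2.1, 190 for pud-4 and 107 for pud-3. Among 14194 tested genes with a length, pud-1.1 ranked 91 and pud-2.1 ranked 84 in that group. High sorts 1 and 2 carried these means: over sorts 3 to 6 they were 632 CPM for pud-1.1 (rank 178), 739 for pud-2.1 (rank 162), 135 for pud-4 and 46.3 for pud-3. In the mir-240/786p::GFP high group, where all were lowest, the means per kilobase were 68.6 CPM for pud-1.1 (rank 2232), 40.8 for pud-2.1 (rank 3851), 7.16 for pud-4 (rank 8144) and 0.624 for pud-3 (rank 12996). Together the 6 rows took 0.0768% to 0.781% of all counts in long-lived libraries, against 0.00385% to 0.100% in short-lived ones. The upper end was lin-4p::GFP high 1, without which it was 0.455%, and without sorts 1 and 2 it was 0.246%. Whether the near-equal rows of a pair hold the same reads is not known. Shared reads would enter these sums in both rows, and the levels and ranks of pud-1.1 and pud-2.1 could hold reads of both copies.

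Across all biomarkers, every pud gene was more abundant in the predicted long-lived fractions. The fitted log2 fold change, long over short, was 2.63 (SE 0.26, edgeR adjusted p = 1.09e-10) for pud-1.1, 3.03 (SE 0.34, adjusted p = 2.09e-09) for pud-2.1 and 3.09 (SE 0.53, adjusted p = 5.2e-06) for pud-3. These are linear folds of 6.17, 8.19 and 8.51, and pud-1.2 and pud-2.2 gave the same log2 values as their copies, 2.63 and 3.03. For pud-4, whose choice rested on this contrast, it was 3.08 (SE 0.22), rank 15 of 14245 by size. Just above it stood pud-3 (3.09) and F23D12.11 (3.10), and just below it C50B6.7 (3.08) and lys-4 (3.07), a lysozyme gene. Genes were called at an adjusted p under 0.0001, the study's threshold, over the 14245 genes that reached 5 counts in 26 or more of the 34 libraries. All 5 genes other than pud-4, that is pud-3 and the 2 pairs of copies, were called higher, where 19% of all genes were (34.7% at 0.05). All 6 passed the filter on low counts. Among the 17 short-lived libraries, pud-3 fell below 5 counts in 2 and the other genes in none.

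**Figure D2:**
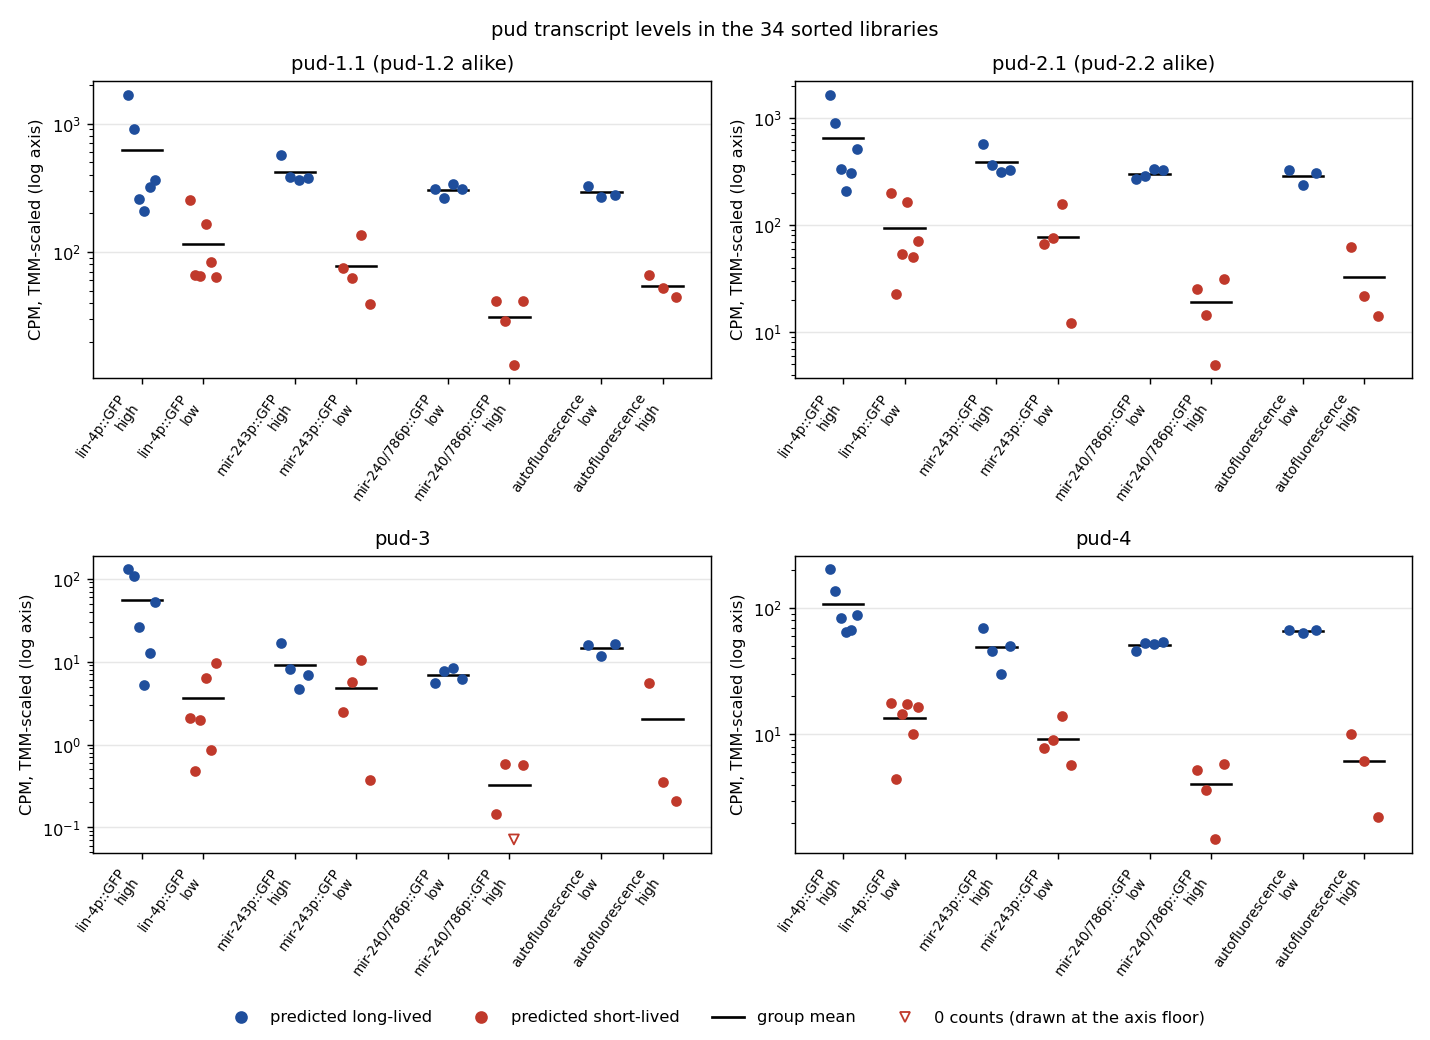
TMM-scaled CPM (log axis) of the 4 separate measurements in each of the 34 libraries, grouped by biomarker fraction, with predicted long-lived groups in blue, predicted short-lived groups in red and group means as black lines; the open triangle is a library with 0 counts. The pud-4 groups are separate in all 4 biomarkers, lin-4p::GFP high holds the 2 highest libraries of each gene, and pud-3 overlaps in the populations sorted on mir-243p::GFP and on lin-4p::GFP.

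For pud-1, which encodes one partner of the PUD-1/PUD-2 dimer, levels were within a narrow band in most long-lived libraries. In the lin-4p::GFP population pud-1.1 ran from 207 to 1682 CPM in high animals (median 344, n = 6), against 63.9 to 252 in low animals (median 75.3, n = 6). The high group was topped by sorts 1 and 2, at 1682 and 906 CPM, and its other 4 libraries lay between 207 and 364, so the groups overlapped in 1 high and 1 low library. In mir-243p::GFP it had 572, 382, 360 and 374 CPM in high animals, against 75.3, 63.1, 135 and 39.4 in low animals. The mir-240/786p::GFP values were 309, 264, 337 and 307 CPM in low animals, against 41.2, 29.0, 13.2 and 41.8 in high animals. Neither population's fractions overlapped, and the SD of log2 CPM was 0.15 in mir-240/786p::GFP low, against 0.78 in high. In the autofluorescence animals pud-1.1 had 329, 266 and 279 CPM in the low fraction, against 66.0, 52.1 and 44.2 in the high fraction, again without overlap.

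For pud-2, the partner of PUD-1, the long-lived levels were nearly those of pud-1 while the short-lived ones reached lower. In lin-4p::GFP pud-2.1 ran from 210 to 1662 CPM in high animals (median 429), against 22.5 to 198 in low animals (median 62.7). The groups did not overlap, though by a margin of 210 against 198 CPM. In mir-243p::GFP it had 570, 362, 314 and 326 CPM in high animals, against 66.2, 75.01, 157 and 12.2 in low animals. The mir-240/786p::GFP libraries had 267, 287, 334 and 326 CPM in low animals, against 25.3, 14.5, 4.92 and 31.2 in high animals. The autofluorescence fractions had 327, 238 and 306 CPM in low animals, against 62.1, 21.9 and 14.0 in high animals. In each of these 3 populations the lowest long-lived library was above the highest short-lived one.

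The paralog pud-3 was the scarcest and the most variable. In lin-4p::GFP it ran from 5.19 to 131 CPM in high animals (median 39.1), against 0.475 to 9.75 in low animals (median 2.03). The 2 fractions overlapped, since high sort 4 had less than the low libraries of sorts 4 and 6. In mir-243p::GFP pud-3 had 16.9, 8.05, 4.70 and 6.81 CPM in high animals, against 2.44, 5.69, 10.5 and 0.373 in low animals, and the groups overlapped there as well. The mir-240/786p::GFP libraries had 5.56, 7.71, 8.41 and 6.15 CPM in low animals, against 0.143, 0.590, 0 and 0.563 in high animals. The 0 came from 19.8 M reads and allows up to 0.151 CPM (3 counts), counting error only. In the autofluorescence fractions it had 15.8, 11.6 and 16.3 CPM in low animals, against 5.47, 0.354 and 0.206 in high animals, where 2 of the 3 libraries held only 6 and 5 counts.

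The gene around which the family was chosen, pud-4, had the smallest pooled SD of log2 CPM within groups of the 4 measurements. It was 0.66, against 0.74 for pud-1.1. By single group, pud-1.1 had the smaller SD in mir-243p::GFP high, mir-240/786p::GFP high and autofluorescence high, and pud-4 in the other groups. In lin-4p::GFP it ran from 64.9 to 204 CPM in high animals (median 85.6), against 4.42 to 17.7 in low animals (median 15.5). In mir-243p::GFP it had 69.5, 45.6, 30.1 and 50.1 CPM in high animals, against 7.80, 9.08, 14.0 and 5.74 in low animals. Its mir-240/786p::GFP values were 45.9, 52.5, 52.0 and 53.9 CPM in low animals, against 5.21, 3.63, 1.48 and 5.83 in high animals. The 3 autofluorescence low libraries were nearly equal at 66.5, 63.7 and 66.9 CPM, against 10.02, 6.13 and 2.22 in the high fraction. Its lowest long-lived library of all, at 30.1 CPM, stood above its highest short-lived one, at 17.7 CPM.

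Non-overlap of the fractions was common among all genes, so the members' counts stand beside that background. In lin-4p::GFP 3 of the 6 genes (both pud-2 genes and pud-4) had every long-lived library above every short-lived one, where 6.14% of tested genes did. In mir-243p::GFP it was 5 of 6, where 14.2% of genes did. All 6 were separate in mir-240/786p::GFP and in autofluorescence, where 27.8% and 33% of genes were. Over all 34 libraries at once 3 of the 6 were separate, again the pud-2 genes and pud-4, against 1.16% of genes. For pud-4 these counts follow from how it was chosen. Each pair of copies is a single measurement, so apart from pud-4 the separation over all 34 libraries was that of pud-2 alone.

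Within single biomarkers the fitted differences were of like size for pud-1, pud-2 and pud-4 and less even for pud-3. In lin-4p::GFP, high over low, the log2 fold changes were 2.43 (SE 0.43, edgeR adjusted p = 3.11e-05) for pud-1.1, 2.82 (SE 0.56, adjusted p = 0.000121) for pud-2.1 and 3.98 (SE 0.79, adjusted p = 0.000129) for pud-3. Of the 5 genes other than pud-4, the pud-1 pair was called at 0.0001 and all 5 at 0.05, where 4.4% and 24.5% of genes were called higher. The value of pud-4 was 3.00 (SE 0.35). Without sorts 1 and 2, left out after their levels had been seen, pud-1.1 was at 1.604 (adjusted p = 0.000286), pud-2.1 at 2.01 (adjusted p = 0.00378) and pud-3 at 2.33 (adjusted p = 0.0214). The call of pud-1 at 0.0001 was then lost, and all 5 stayed under 0.05. The pud-4 value was then 2.36. Single libraries also moved calls at 0.0001: pud-1.1 lost it without high 1 (adjusted p = 0.000177), low 2 (0.000155), low 3 (0.00013), low 5 (0.000128) or low 6 (0.000143). In turn pud-2.1 gained it without high 3, high 4, low 1, mir-243p::GFP low 3 or 4, mir-240/786p::GFP high 3 or autofluorescence high 1 (4.88e-05 to 9.89e-05), and pud-3 without high 4, high 5, low 6, mir-243p::GFP low 4 or autofluorescence high 1 or 3 (4.6e-05 to 9.48e-05).

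In mir-243p::GFP, high over low, pud-1.1 was 2.43 higher on the log2 scale (SE 0.53, edgeR adjusted p = 0.00147) and pud-2.1 was 2.34 higher (SE 0.67, adjusted p = 0.0114). The pud-3 difference was 0.94 (SE 0.87, adjusted p = 0.465), with a 95% interval from -0.78 to 2.65, so neither no change nor a rise like that of its neighbours could be told from it. None of the 5 genes passed 0.0001 and 4, the pud-1 and pud-2 pairs, passed 0.05, adjusted or not. Of all genes, 0.505% and 10.6% were called higher. With DESeq2 the pud-1 pair passed 0.0001 as well (adjusted p = 6.31e-05 for pud-1.1), and without lin-4p::GFP sorts 1 and 2 it did so in edgeR (3.82e-06). The value of pud-4 was 2.41 (SE 0.42).

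In mir-240/786p::GFP, low over high, the differences were the largest of the 4 populations for pud-1, pud-2, pud-3 and pud-4. The log2 fold changes were 3.28 (SE 0.55, edgeR adjusted p = 1.42e-05) for pud-1.1, 4.00 (SE 0.72, adjusted p = 3.89e-05) for pud-2.1 and 4.395 (SE 1.14, adjusted p = 0.00202) for pud-3. Of the 5 genes other than pud-4, 4, the pud-1 and pud-2 pairs, were called at 0.0001 and all 5 at 0.05. Of all genes, 6.46% and 24.6% were called higher. The value of pud-4 was 3.66 (SE 0.45). Without lin-4p::GFP sorts 1 and 2 the edgeR adjusted p were 8.69e-09 for pud-1.1, 1.35e-06 for pud-2.1 and 0.000556 for pud-3. With DESeq2 and with its own libraries only, pud-3 passed 0.0001 too (adjusted p = 5.76e-05 and 2.99e-05). At 0.0001 pud-1.1 lost its call without high 2 (adjusted p = 0.000121) or high 3 (0.000158), and pud-2.1 without high 1 (0.000181), high 2 (0.000334), high 3 (0.000337), low 3 (0.000107) or low 4 (0.000103).

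In autofluorescence, low over high, the values were 2.43 (SE 0.61, edgeR adjusted p = 0.0021) for pud-1.1, 3.15 (SE 0.80, adjusted p = 0.00231) for pud-2.1 and 2.86 (SE 1.09, adjusted p = 0.0348) for pud-3. None of the 5 passed 0.0001, in edgeR or DESeq2, and all 5 passed 0.05, adjusted or not, where 2.03% and 21.3% of genes were called higher, and pud-4 was at 3.43 (SE 0.51). Without lin-4p::GFP sorts 1 and 2 the pud-1 pair passed 0.0001 (7.83e-06 for pud-1.1). The pud-1.1 value stayed at 2.43 and its SE was then 0.38, so those sorts had widened the spread used for this population. The pud-3 value lost the 0.05 threshold without any 1 of 5 autofluorescence libraries: adjusted p = 0.125 without high 2, 0.145 without high 3, and 0.0617, 0.051 and 0.063 without low 1, 2 and 3.

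**Figure D3:**
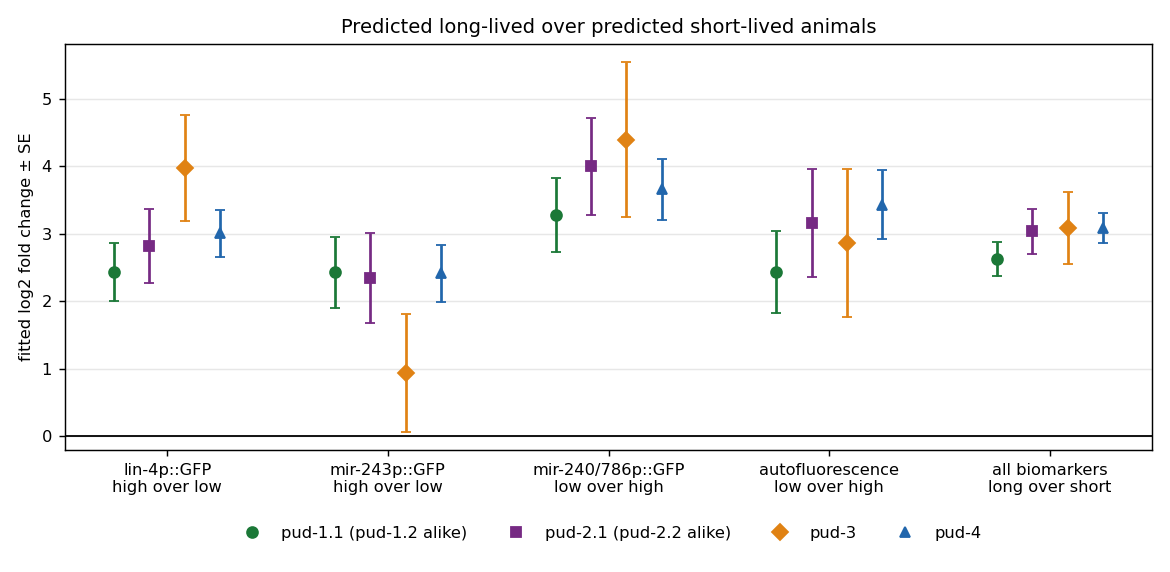
Fitted log2 fold changes, predicted long-lived over predicted short-lived, of the 4 separate measurements in each biomarker population and over all 34 libraries (x axis); error bars are standard errors of the edgeR fit. All values are above 0, the pud-3 value in mir-243p::GFP (0.94) has the smallest size, and the pud-4 points were chosen by the pooled contrast at the right.

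The question whether the long-over-short difference was unequal among the 4 biomarkers was tested directly, with an interaction term that the choice of pud-4 had not used. No pud gene passed at either threshold in edgeR or DESeq2, and 0 of 6 had an unadjusted p under 0.05 in edgeR. The adjusted p was 0.788 for pud-1.1, 0.633 for pud-2.1, 0.284 for pud-3 (unadjusted p = 0.0529 in edgeR) and 0.49 for pud-4. Of all genes, 0% passed 0.0001 and 1.74% passed 0.05 in that test. The larger values in mir-240/786p::GFP and the small pud-3 value in mir-243p::GFP were therefore not shown to differ from the rest. Without lin-4p::GFP sorts 1 and 2 the adjusted p were 0.0528 for pud-1.1, 0.161 for pud-2.1, 0.214 for pud-3 and 0.0801 for pud-4.

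Bright animals are the predicted long-lived ones when sorted on either intestinal GFP reporter, and the predicted short-lived ones when sorted on mir-240/786p::GFP or autofluorescence, so brightness could be fitted beside predicted lifespan. The log2 difference, high over low brightness, was -0.24 (SE 0.25, edgeR adjusted p = 0.666) for pud-1.1, -0.50 (SE 0.31, adjusted p = 0.445) for pud-2.1, -0.39 (SE 0.53, adjusted p = 0.768) for pud-3 and -0.40 (SE 0.20, adjusted p = 0.339) for pud-4. None of the 6 was called in edgeR or DESeq2, 0 had an unadjusted p under 0.05 in edgeR, and 0% of all genes passed 0.0001 and 0.204% passed 0.05. Without sorts 1 and 2 of lin-4p::GFP the pud-4 value was -0.58 and passed 0.05 (adjusted p = 0.0214), and the other 5 genes did not. In this fit a negative value is the same as a larger long-over-short difference in mir-240/786p::GFP and autofluorescence than in the populations sorted on intestinal GFP. The fit cannot tell these readings apart, so an effect of brightness itself was not tested.

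Inside single sorts the direction was almost uniform. In all 17 sorts the long-lived fraction held more pud-1, more pud-2 and more pud-4 than the short-lived fraction of the same sort. For pud-3 this was so in 15 of 17. The exceptions were lin-4p::GFP sort 4, with a log2 difference of -0.30, and mir-243p::GFP sort 3, with -1.14. Those 2 sorts were also the weakest for the other genes. In lin-4p::GFP sort 4 the log2 difference was 0.34 for pud-1.1, 0.36 for pud-2.1 and 1.88 for pud-4, and in mir-243p::GFP sort 3 it was 1.41, 1.00 and 1.104. At the other end, lin-4p::GFP sort 2 had log2 differences of 3.76 for pud-1.1, 5.33 for pud-2.1, 7.56 for pud-3 and 4.92 for pud-4, and mir-240/786p::GFP sort 3 had 4.67, 6.06, 6.47 and 5.05.

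**Figure D4:**
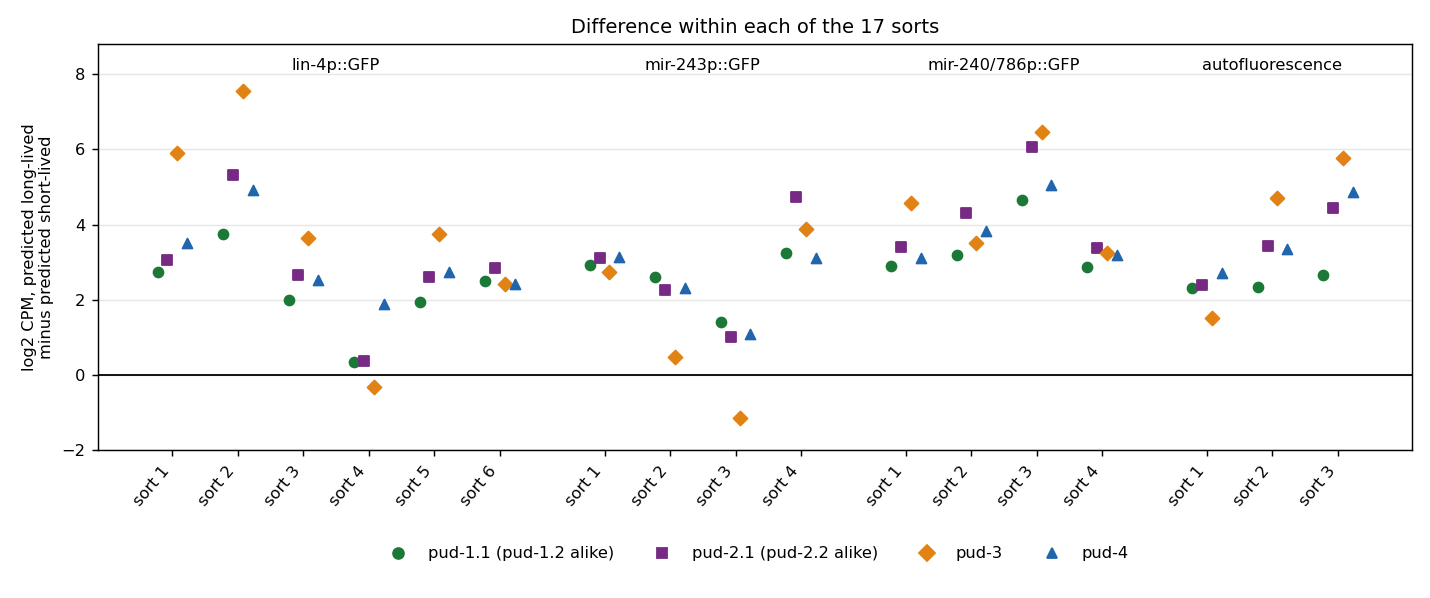
Difference in log2 CPM (prior count 2), predicted long-lived minus predicted short-lived library, in each of the 17 sorts (x axis, by biomarker) for the 4 separate measurements. Of the pud-3 points, 2 lie below 0, in lin-4p::GFP sort 4 (-0.30) and mir-243p::GFP sort 3 (-1.14), and all other points lie above 0.

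The levels showed where the fractions of the weakest and strongest sorts stood in their groups. In lin-4p::GFP sort 4 the high fraction was the lowest of its group for pud-1.1 (207 CPM) and the low fraction was the second highest of its own (164 CPM). In mir-243p::GFP sort 3 the low fraction was the highest of its group for pud-1.1, pud-2.1, pud-3 and pud-4, at 135, 157, 10.5 and 14.0 CPM. In the same sort the high fraction was the lowest of its group for all 4 measurements, at 360, 314, 4.70 and 30.1 CPM. In lin-4p::GFP sorts 1 and 2 the high fractions were the highest of their group, with a mean pud-1.1 level of 1294 CPM, against 288 in high sorts 3 to 6. Their low fractions differed from each other. Low sort 1 was the highest of its group for pud-1.1 (252 CPM), pud-2.1 (198 CPM) and pud-4 (17.7 CPM), and the pud-1.1 difference of that sort, 2.74 on the log2 scale, was near the median of 2.65 over all sorts. Low sort 2 was the lowest of its group for pud-2.1 (22.5 CPM), pud-3 (0.475 CPM) and pud-4 (4.42 CPM). Whether these sorts were handled or sequenced apart is not given in the labels. Leaving both sorts out, the pooled log2 fold changes were 2.45 for pud-1.1, 2.86 for pud-2.1, 2.42 for pud-3 and 2.93 for pud-4, and the calls at 0.0001 stood (adjusted p = 1.81e-11 for pud-1.1, 4.19e-09 for pud-2.1 and 4.72e-05 for pud-3).

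In the order of the 8 group means, the 4 predicted long-lived groups came first for pud-1, pud-2 and pud-4, and for pud-3 as well. For pud-1.1 the means were 624 ± 577 CPM in lin-4p::GFP high, 422 ± 100 in mir-243p::GFP high, 304 ± 30.2 in mir-240/786p::GFP low and 291 ± 33.2 in autofluorescence low, followed by 116 ± 76.9 in lin-4p::GFP low, 78.3 ± 40.8 in mir-243p::GFP low, 54.1 ± 11.01 in autofluorescence high and 31.3 ± 13.4 in mir-240/786p::GFP high (SD, n = 6, 4, 4, 3, 6, 4, 3 and 4). The step from autofluorescence low to lin-4p::GFP low was the one gap between neighbours wider than their SDs together, and the order of pud-2 was the same, with its one such gap at the same place. Without sorts 1 and 2 the lin-4p::GFP high mean was 288 CPM for pud-1.1, which put it last of the 4 long-lived groups, and 344 CPM for pud-2.1, which put it after mir-243p::GFP high. For pud-4 the order was lin-4p::GFP high (107 ± 53.8 CPM), autofluorescence low (65.7 ± 1.74), mir-240/786p::GFP low (51.1 ± 3.51) and mir-243p::GFP high (48.8 ± 16.21), then lin-4p::GFP low (13.4 ± 5.25), mir-243p::GFP low (9.15 ± 3.50), autofluorescence high (6.12 ± 3.90) and mir-240/786p::GFP high (4.04 ± 1.94). Here 2 steps were wider than the SDs, the one below autofluorescence low and the one below mir-243p::GFP high. For pud-3 no pair of neighbours was separate by that measure, from 55.7 ± 52.1 CPM in lin-4p::GFP high through 14.5 ± 2.60 in autofluorescence low, 9.11 ± 5.35 in mir-243p::GFP high and 6.95 ± 1.33 in mir-240/786p::GFP low to 0.324 ± 0.297 in mir-240/786p::GFP high. For pud-3 and pud-4 lin-4p::GFP high stayed first without sorts 1 and 2, at 24.05 and 75.9 CPM.

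The 4 populations differed in overall pud level at 0.05. The test across them, with predicted lifespan held in the fit, gave adjusted p of 0.00305 for pud-1.1, 0.00935 for pud-2.1, 0.00531 for pud-3 and 0.000909 for pud-4 (edgeR). All 6 genes passed 0.05 and none passed 0.0001, where 41.3% and 10.3% of all genes did. Without lin-4p::GFP sorts 1 and 2 the adjusted p were 0.0226, 0.0375, 0.0174 and 0.00311, and all 6 still passed 0.05. Strain and reporter cannot be told apart in this comparison, and sequencing runs are not in the labels. With DESeq2 pud-4 passed 0.0001 (adjusted p = 2.05e-05).

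The pud-2 to pud-1 ratio was higher in the long-lived fraction of most sorts, though not by group median in mir-243p::GFP. Per base of exon, pud-2 stood at 0.873 to 1.44 times pud-1 in the 17 long-lived libraries (median 1.00) and at 0.316 to 1.202 times in the 17 short-lived libraries (median 0.755). In 15 of 17 sorts the long-lived library had the higher ratio, and the exceptions were mir-243p::GFP sorts 2 and 3. In mir-240/786p::GFP the fractions were apart, at 0.873 to 1.098 in low animals, against 0.380 to 0.755 in high animals. In mir-243p::GFP they overlapped, at 0.880 to 1.01 in high animals (median 0.919), against 0.316 to 1.202 in low animals (median 1.03). The medians thus went the other way there. The ratio is built from the long-over-short contrast and is given as a description with no test. For pud-4 over pud-1 the long-lived library was higher in 13 of 17 sorts, with a median ratio of 0.146 over the long-lived libraries and 0.100 over the short-lived ones. For pud-3 over pud-4 it was 11 of 17 sorts.

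**Figure D5:**
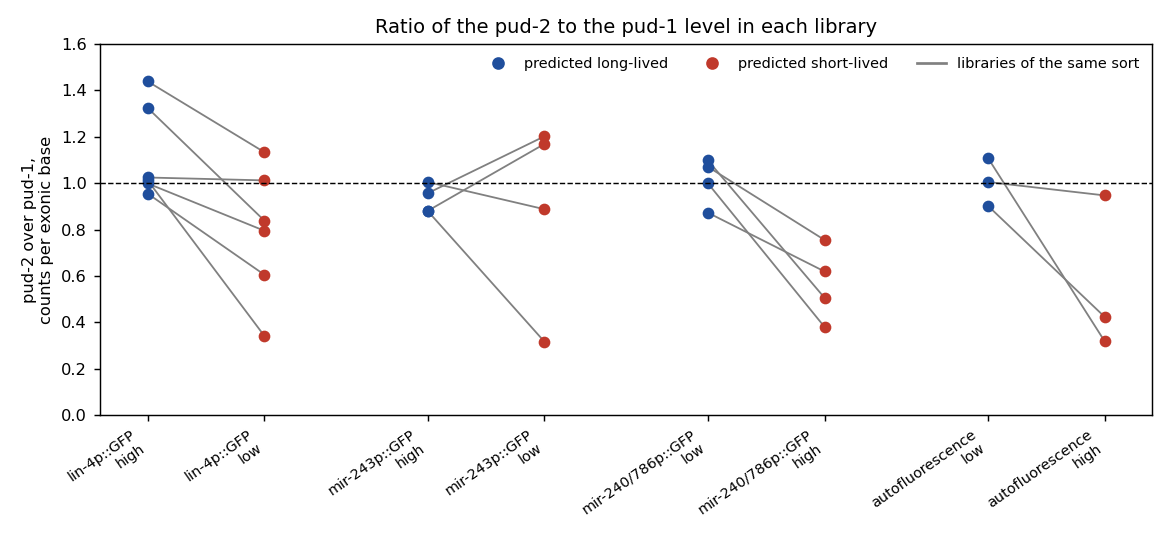
Ratio of the mean pud-2 count to the mean pud-1 count, each per exonic base (y axis), in every library by biomarker fraction (x axis), with predicted long-lived libraries in blue, predicted short-lived in red and grey lines joining libraries of the same sort; the dashed line marks a ratio of 1. The long-lived libraries lie between 0.873 and 1.44, the short-lived ones between 0.316 and 1.202, and 2 lines of mir-243p::GFP rise to the right.

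Among replicate libraries of the same group, pooled over all groups, the pud genes varied more than most genes. The residual SD of log2 CPM within groups was 0.66 for pud-4, 0.74 for pud-1.1, 1.03 for pud-2.1 and 1.49 for pud-3, where the median over 14245 genes was 0.36. These stood at percentiles 88.2, 93.5, 98.9 and 99.8 of all tested genes. The spread was uneven over groups. For pud-1.1 the SD was 1.17 in lin-4p::GFP high, but 0.15 in mir-240/786p::GFP low and 0.16 in autofluorescence low. For pud-4 it was 0.64, 0.10 and 0.04 in these groups. Pooled values without lin-4p::GFP sorts 1 and 2 are not given. Over all 17 libraries of each kind, the SD of log2 CPM of pud-2.1 was 0.74 in long-lived libraries, against 1.46 in short-lived ones, and that of pud-4 was 0.63 against 1.02. Within lin-4p::GFP the order was the other way for pud-1.1, at 1.17 in high animals against 0.84 in low animals, and for pud-3, at 1.802 against 1.57.

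The deviations of a library from its group mean correlated among the 4 measurements. Over 34 libraries the Pearson correlation of these deviations was 0.88 between pud-1.1 and pud-2.1, 0.88 between pud-2.1 and pud-4, 0.84 between pud-2.1 and pud-3 and 0.82 between pud-3 and pud-4. It was lowest between pud-1.1 and pud-3, at 0.64, and was 0.73 between pud-1.1 and pud-4. Many genes elsewhere correlated as closely: by r with pud-1.1, pud-4 ranked 107 and pud-3 ranked 378 of all tested genes, while with pud-2.1 they ranked 9 and 15. Without lin-4p::GFP sorts 1 and 2 these were 0.90, 0.83, 0.85, 0.78, 0.64 and 0.72 over 30 libraries. The points share library, depth and scaling, and the values are descriptions.

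By the same measure, the genes most like pud-1.1 were pud-1.2, pud-2.2 and pud-2.1, and those most like pud-2.1 were pud-2.2, spp-3 (r = 0.90) and spp-2 (r = 0.89). The spp genes encode saposin-like proteins, some of which kill bacteria in the gut. Most like pud-3 were F54D5.4 (r = 0.86), spp-4 (r = 0.85) and tyr-1 (r = 0.84), a tyrosinase gene. Most like pud-4 were ilys-5 (r = 0.91), an invertebrate-type lysozyme gene, spp-4 (r = 0.89) and ZK1320.2 (r = 0.89). With Spearman's rho the first for pud-4 became spp-16 (0.86), F54D5.4 stayed first for pud-3 (0.84), and spp-2 ranked 15 for pud-2.1. Without lin-4p::GFP sorts 1 and 2 the lists changed for pud-2.1, pud-3 and pud-4. After pud-2.2, cpr-9 (r = 0.93) and dct-16 (r = 0.91) were then most like pud-2.1, with spp-3 at rank 13 and spp-2 at rank 16. For pud-3 they were spp-4 (r = 0.86) and the pud-2 pair (r = 0.85), with tyr-1 at rank 6 and F54D5.4 at rank 9. For pud-4 they were asp-5 (r = 0.90), ilys-5 (r = 0.89) and asp-2 (r = 0.88), with spp-4 at rank 4 and ZK1320.2 at rank 23, where the asp genes encode aspartyl proteases. The pud-1.1 list was unchanged.

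The genes around the cluster were nearly silent. Within 10 kb lie 5 other protein-coding genes and 2 pseudogenes. The 5 had at most 43 counts in any library, and 2 of them passed the filter. Y19D10B.6, 937 bases from pud-1.2, had 0.335 to 1.66 CPM and differed by 0.78 on the log2 scale (SE 0.17, edgeR adjusted p = 0.000134). The gene irld-30, of a family of insulin/EGF-receptor L domain proteins and 8610 bases from pud-1.1, had at most 1.57 CPM and differed by 1.42 (SE 0.29, edgeR adjusted p = 5.71e-05).

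Because the family is known from daf-2 mutants, 3 lists from that pathway were read in the pooled contrast, in which 19% of all genes were called higher and 21.6% lower, with a median log2 fold change of -0.01. Of 18 tested genes known to be higher in daf-2 mutants, 9 rose and 4 fell, and the median was 0.51. The largest rises were dod-3 (2.80, edgeR adjusted p = 3.42e-09), a gene downstream of DAF-16, and fat-7 (2.77, adjusted p = 1.41e-11), a fatty acid desaturase. The falls were small heat shock genes, led by hsp-16.1 (-2.19, adjusted p = 5.68e-07) and hsp-16.2 (-1.75, adjusted p = 1.5e-05), of which hsp-16.1 has a near-identical copy and may share reads with it. Of 9 tested genes known to be lower in daf-2 mutants, 3 rose and none fell, with a median of 0.68. They included dod-24 (2.84, adjusted p = 3.4e-12) and the vitellogenin vit-5 (2.17, adjusted p = 5.19e-06), which the intestine makes for yolk. The pud genes, named for their rise in daf-2 mutants, thus rose here beside genes of both lists.

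Among 14 components of insulin signalling, 3 rose and 2 fell, with a median of -0.11, where 19% of all genes were called higher and 21.6% lower. The kinase gene sgk-1 rose by 1.35 (edgeR adjusted p = 2.47e-11). The DAF-16 cofactor smk-1 was at -0.61 (adjusted p = 7.79e-07) and the 14-3-3 gene ftt-2 at -0.49 (adjusted p = 3.16e-08). The receptor daf-2 was at -0.13 (adjusted p = 0.403) and daf-16 at 0.06 (adjusted p = 0.646).

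Markers of the tissues in which PUD proteins are known, and of other tissues, were read in the same way. The shares of all genes beside these counts are again 19% called higher and 21.6% lower. Of 8 intestinal markers 4 rose and none fell, with a median log2 fold change of 0.91, and their summed level was 611 to 2159 CPM in long-lived libraries, against 119.05 to 1052 CPM in short-lived ones. Most of that sum was asp-1, while ifb-2 (0.03, adjusted p = 0.9) and act-5 (-0.38, adjusted p = 0.119) were not called. Of 5 tested epidermal markers none rose and 2, dpy-7 and lin-26, fell (median -0.11), with a summed level of 177 to 424 CPM in long-lived libraries, against 163 to 385 CPM in short-lived ones, and rol-6, bli-1 and dpy-13 did not pass the filter. Of 5 body wall muscle markers none rose and 1, hlh-1, fell (-1.52, edgeR adjusted p = 1.03e-08), with a median of 0.05. Among the rest, unc-54 (1.04, adjusted p = 0.000264) and unc-15 (0.95, adjusted p = 0.000119) were higher at 0.05 only. The values of myo-3 (0.05) and unc-22 (-0.22) passed neither threshold. Of 6 neuronal markers none rose and 4 fell (median -0.45). Of 7 germline markers 3 rose and none fell, with a median of 0.69. Their summed level was 2809 to 7584 CPM in long-lived libraries, against 1567 to 5949 CPM in short-lived ones. The pud genes moved in the direction of the intestinal and germline medians, and the part of either list's level in their difference was not tested. In whole animals, fewer cells of a type and less RNA per cell cannot be told apart.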

How the data were processed

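The deposited table held raw read counts per gene, made by the authors with STAR 2.7.3a and featureCounts on WBcel235, per the labels. Strand, annotation release and the treatment of reads matching several genes are not given in the sources used here. Genes were matched by WormBase identifier to Ensembl release 115 and RefSeq annotation; WBGene00017490 was taken as pud-2.1 from its RefSeq symbol and position, since another table names it pud-2.2. No sequences were used here. Members and gene lists were chosen with earlier results of these data known; the text names all 6 pud genes, the 3 genes most like each, tested neighbours within 10 kb and, per pathway list, the 2 largest rises and falls among called genes, with daf-2 and daf-16 added after their values were seen; 1 gene this rule names is not reported here.

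Counts were analysed in R 4.3.3 with edgeR 4.0.16 (TMM, quasi-likelihood F-tests, Benjamini-Hochberg over 14245 genes with at least 5 counts in 26 of 34 libraries; gfp was not tested). The pooled fit had terms for biomarker and predicted lifespan; single biomarkers, and the interaction, came from 8 group means over all 34 libraries; brightness and population level were tested beside predicted lifespan. Calls were made at an adjusted p under 0.0001, with 0.05 beside it. Log2 CPM used a prior count of 2. The script was tested on simulated counts. The labels give high and low fractions of a sort the same number, which pairs them. Deviations from group means correlated at -0.07 to 0.57 over the 17 pairs (median 0.19), against a median of -0.05 for other numbers. Taken by gene over the 17 sorts, long- and short-lived deviations correlated at 0.26 for pud-1.1, 0.03 for pud-2.1, -0.20 for pud-3 and -0.22 for pud-4. Alternatives were a replicate block by sort, DESeq2 1.42.0, other scalings and filters, summed copies, own libraries only, and each library left out. Intervals and floors cover counting error only. Libraries within groups differed beyond counting noise (chi-square per degree of freedom 10.4 to 257 over 60 pairs), so none was counted as a duplicate. The study's sequencing batches are not in the labels and had no term.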

Additional observations from a re-analysis of the deposited data

Results flagged for a closer look

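One library stood apart within its group for pud-1. In mir-243p::GFP high sort 1 the log2 CPM was 9.16 for pud-1.1 and 9.16 for pud-1.2, 572 CPM for pud-1.1, and the other 3 libraries of the group lay between 360 and 382 CPM. The gap to the nearest library took 0.872 of the range of the 4 libraries for pud-1.1 and 0.868 for pud-1.2. The copies share their counts, so these are 1 observation. Over the 6 genes 36 groups of 4 or 6 libraries were examined in this way, 2 were picked out, and chance alone picks out about 1 in 20. Over all 34 libraries left out in turn, that one among them, the mir-243p::GFP log2 fold change of pud-1.1 ran from 2.21 to 2.83. The value without that library alone is not given here.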

How the results depend on the processing

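Leaving aside pud-4, which the pooled contrast chose, the other 5 genes kept their direction and calls in it under every alternative (4 where at least 10 counts were asked in every library and pud-3 drops out, 3 where copies were summed). With the replicate block by sort, the pairing the labels give, the pooled log2 fold change was 2.62 for pud-1.1 and 3.24 for pud-2.1, and the block changed no call; population level could not be fitted with it. Counts of called genes in single biomarkers, which include pud-4 and so are no test of it, moved more, and no value changed sign in any setting. These counts take each copy of a pair as a gene, except where copies were summed. The share of all genes called under each setting is not given beside them. In the pooled contrast DESeq2 called more of all genes than the main fit did. A higher count under a setting is therefore not shown to be particular to the pud genes. In lin-4p::GFP 3 genes were called, 6 with DESeq2, 1 with its own libraries only, 1 with sorts 3 to 6 only and 1 to 6 with single libraries left out. In mir-243p::GFP 0 were called, 3 with DESeq2, 3 without lin-4p::GFP sorts 1 and 2 and 0 to 1 with single libraries left out. In mir-240/786p::GFP 5 were called, 6 with DESeq2 or its own libraries only, 3 with copies summed and 1 to 5 with single libraries left out. In autofluorescence 1 was called, 0 with its own libraries only, 3 without lin-4p::GFP sorts 1 and 2 and 0 to 1 with single libraries left out. In the test of population level 0 were called at 0.0001 and 1, pud-4, with DESeq2 (adjusted p = 2.05e-05). In the interaction and brightness tests it was 0 in every setting. The cause of these shifts was not tested, apart from fewer libraries or genes where a setting removes them.

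Calls that turned on 1 library are named beside their results. The changes in the autofluorescence count, without high 2 or high 3, and in the mir-243p::GFP count, without lin-4p::GFP low 2, were those of pud-4, which the contrast had chosen. At 0.05 the autofluorescence value of pud-3 was the one long-over-short call that changed with a library left out. Depth limits pud-3, which had 0 to 17 counts in 9 short-lived libraries.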
